A study of Mus musculus with 23 samples.

Results

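Single mMSCs, sequenced one by one, were compared with a library made from a population of the same cells (mMSC-PC), gene by gene across the transcriptome. The comparison used 17 of the 23 libraries of the series, namely the 16 single-cell libraries mMSC1 to mMSC16 and the 1 population control. All of them came from bone marrow mesenchymal stem cells of the strain C57BL/6J, grown on gelatin and used between passages 6 and 11, with no treatment or genetic change in either group. The single cells were captured on a Fluidigm C1 chip made for cells of 17 to 25 micrometres, in which RNA is converted to cDNA and amplified within each capture site. By the labels the control went through the same procedure with bulk material, and by the study's methods it was a bulk sample of many cells. The other 6 libraries, 5 single HL-1 cardiomyocytes (HL1cm, an atrial tumour cell line of the mouse, passages 70 to 85) and their own control HL1cm-PC, were handled in a like manner apart from a dye. By the study's methods the HL1cm were captured in the same device as the mMSCs and carried a green cytoplasmic dye, which is not named for the mMSCs. These libraries are given beside the mMSC values as a second pair of single cells and control. No separate cultures are named for either cell type, so each group counts as 1 sample and no test was made. The spread given with each value is the spread between cells of 1 culture, and the control has no replicate. In a bulk library, fewer cells with a transcript and less of it per cell cannot be told apart.

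Mesenchymal stem cells are the stromal cells of the bone marrow, known for their matrix proteins, for their chemokines and cytokines, and for giving rise to bone, cartilage and fat cells. A population library averages over many cells. A single-cell library starts from the few RNA copies of 1 cell, so a transcript present in a fraction of cells, or at few copies, can be seen in some cells and missed in others. The comparison asks how near the mean of 16 cells came to the population, and which genes and gene classes lay apart from it.

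Expression is given as FPKM, a fragment count scaled to transcript length and to the mapped total of the library. Of the 23284 genes in the table, the 759 with symbols starting Mir or Snor were left out, which kept 22525. A gene counted as detected at 1 FPKM or more. Values under 1 were set to 1 before taking log2, and the difference of a gene is the log2 of its mean over the 16 cells minus the log2 of its value in mMSC-PC. A total of 10944 genes were at 1 FPKM or more in mMSC-PC or in the mean of the cells and are called measured. A measured gene was called higher when the difference was at least 1 (2-fold) and at least 12 of the 16 cells lay above the control, and lower by the mirror rule.

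Of 12 mesenchymal markers, 10 were detected in 16 of 16 cells and in mMSC-PC, among them Vim, Lgals1, Ly6a, Cd44, Col1a1 and Fn1. Col3a1 was in 12 cells and in mMSC-PC, and Thy1 was listed at 0 in all 17 libraries. Ptprc, the pan-leukocyte marker, was listed at 0 in all 17 libraries, and none of the 10 endothelial and 9 erythroid markers looked up reached 1 FPKM in the control or in the mean of the cells. Of 16 macrophage and leukocyte markers, 4 were measured. Cd14, the lipopolysaccharide co-receptor, was at 1 FPKM or more in 15 cells, with a median of 62.5 and at most 337 FPKM, against 112 FPKM in mMSC-PC. Csf1r, the receptor of a macrophage growth factor, was at 1 FPKM or more in 8 cells, at most 32.6 FPKM, and above the 7.04 FPKM of mMSC-PC in 5 of them. Cd68 was in 1 cell, at 48.1 FPKM against 12.6, and Itgam was in no cell and at 1.38 FPKM in mMSC-PC. The markers' summed level was 3.10 to 369 FPKM in the cells and 133 in mMSC-PC, 10 of the 16 were listed at 0 in all 17 libraries, and their part in the results was not tested. The methods name male mice as the source. Xist, the RNA of the inactive X chromosome, was nevertheless at 5.04 to 31.0 FPKM in 16 of 16 cells and at 2.58 FPKM in mMSC-PC, and 4 genes of chromosome Y were listed at 0 in every library. Transcripts of heart muscle, the cell type captured alongside, appeared at a low level. Of 17 cardiomyocyte markers, 7 that were listed at 0 in mMSC-PC reached 1 FPKM in single mMSCs, namely Tnnt2 in 6 cells, Myl7 in 5, Tnnc1 in 4, Myl4 in 3, Myh6 and Pln in 2 each and Tnni3 in 1. Actc1 was in 3 cells and in mMSC-PC. The summed level of all 17 ran from 0 to 65.4 FPKM in the 16 cells, against 2.796 in mMSC-PC and 33016 to 60214 in the 5 HL1cm. Their part in the results below was not tested.

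Between 5175 and 7234 genes were detected per cell, with a median of 6856.5, against 9623 in mMSC-PC. Across all genes kept, Pearson's r between the log2 FPKM of a cell and that of mMSC-PC had a median of 0.810, the lowest being 0.744 (mMSC9) and the highest 0.819 (mMSC7). The mean of the 16 cells reached 0.910, above every single cell, and 0.828 over the measured genes alone. These are correlations across genes, which are not independent replicates, and carry no p-value. mMSC9 and mMSC15 stood apart, with 5175 and 5835 genes, and by the study's alignment statistics had the fewest aligned read pairs. By the same statistics the control had fewer aligned read pairs than the median cell.

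**Figure D1:**
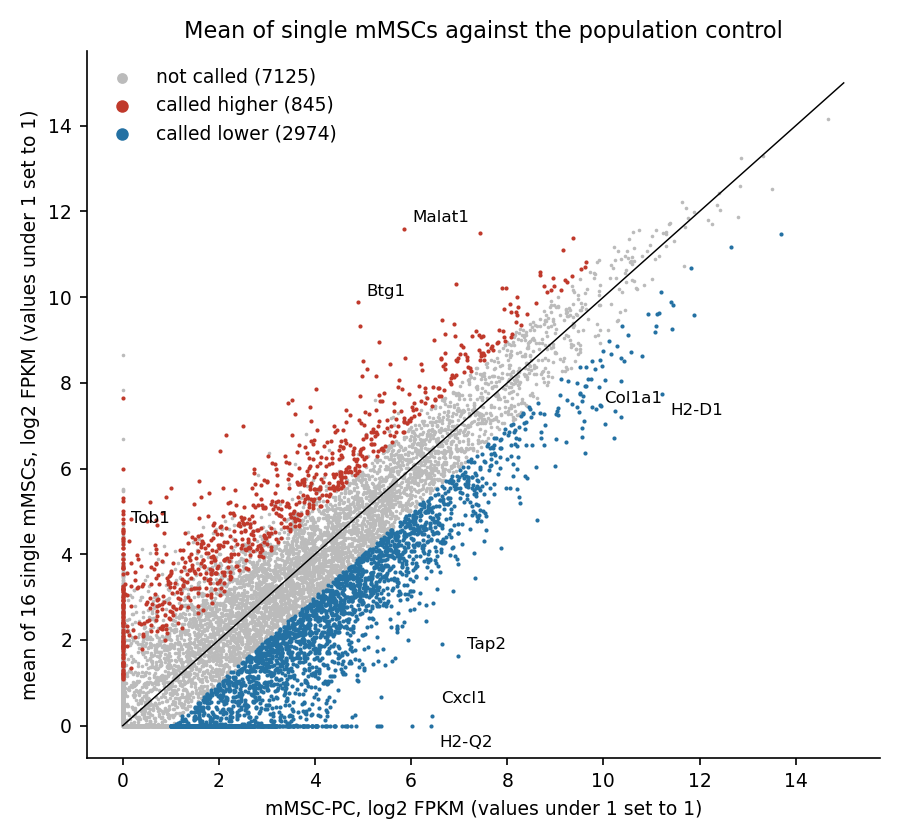
Each point is 1 of 10944 measured genes, with its log2 FPKM in mMSC-PC on the x axis and the log2 of its mean FPKM over 16 single mMSCs on the y axis (values under 1 set to 1), and the line marks equal values. The 2974 genes called lower (blue) outnumber the 845 called higher (red), and genes along the bottom edge had a mean under 1 FPKM in the cells; with no requirement on the number of cells, 2081 genes would be called higher and 2978 lower.

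More genes were called lower than higher. Of the 10944 measured genes, 845 were called higher (7.72%) and 2974 lower (27.2%), while 5885 (53.8%) differed by less than 2-fold. With the 2-fold rule alone and no requirement on the number of cells, 2081 genes were higher and 2978 lower. The median difference over all measured genes was -0.15, and 45.5% of them had a difference above 0. In 16 of 16 cells, 212 of the genes called higher lay above the control and 1166 of those called lower lay below it. In an individual cell, between 27.4% and 35.4% of the measured genes exceeded the control. The same comparison in the cardiomyocytes, with at least 4 of 5 cells on one side, called 533 of 10827 genes higher (4.92%) and 4435 lower (41.0%), with a median difference of -0.70. Of the 800 genes called higher in mMSCs that were also measured in HL1cm, 229 were called higher there, which is 28.6% of these genes and 43.0% of the HL1cm list. Of the 2464 genes called lower that were measured in HL1cm, 1676 were called lower there, 68.0% of these and 37.8% of the HL1cm list.

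The nuclear long noncoding RNA Malat1 (chromosome 19, GRCm38 bases 5795690 to 5802672, minus strand) was the gene of largest difference among those higher in every cell and detected in the control. It ranged from 416 to 5701 FPKM over the 16 cells with a median of 3354, against 58.1 FPKM in mMSC-PC. Its mean of 3097 FPKM was 53.3-fold above the control, a log2 difference of 5.74 with an SD of 1.05 between cells. The lowest cell was still above the control several times over, and in HL1cm the difference was 4.69.

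Btg1, an inhibitor of cell proliferation that recruits the deadenylation machinery (chromosome 10, bases 96617006 to 96622809), followed. The cells spanned 478 to 1465 FPKM with a median of 1013, and mMSC-PC was at 29.8 FPKM, so the mean was 31.7-fold higher (difference 4.99, SD 0.48). Pan3, a subunit of the poly(A) nuclease that starts mRNA decay, ran from 17.1 to 96.0 FPKM against 1.47 (difference 4.67). Rbm26, an RNA-binding protein, was at 56.3 to 325 FPKM in the cells and at 5.70 in the control (4.49). Hnrnpl was at 37.9 to 131 against 4.06 (4.40) and Hnrnpa0 at 50.2 to 373 against 11.4 (4.09), both heterogeneous nuclear ribonucleoproteins. Cdk12, the kinase of elongating RNA polymerase, was at 14.95 to 122 against 1.86 (4.45). The remaining 5 were Kif2a, a microtubule depolymerase (4.63), Fam120a (4.41), Cul3, the scaffold of a ubiquitin ligase (4.12), Nudt3 (4.101) and Pdzd8 (4.09). Apart from Pdzd8, with 3 of 5, each of these 12 genes lay above HL1cm-PC in at least 4 of 5 HL1cm, and the difference of the HL1cm mean was 1.36 or more. In all, 194 genes lay above the control in 16 of 16 cells, were called higher and were detected in mMSC-PC.

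**Figure D2:**
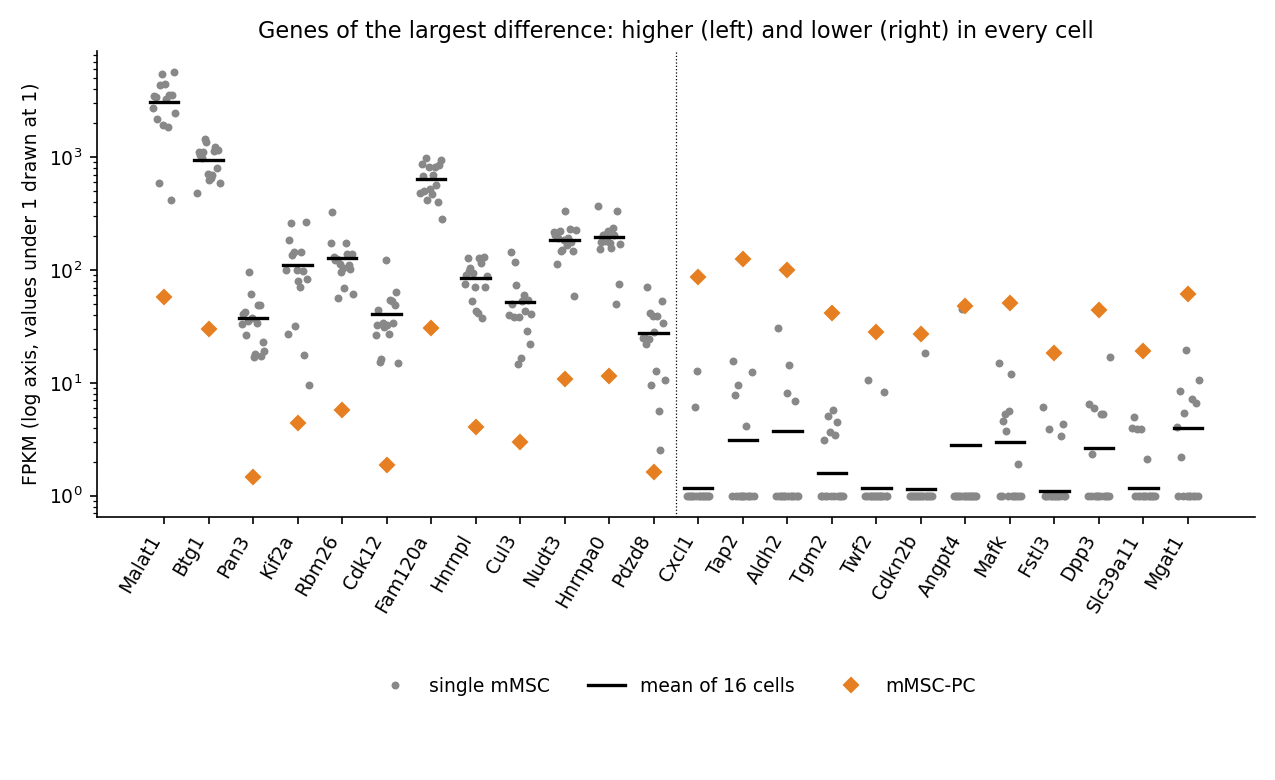
FPKM on a log axis of 12 genes above (left) and 12 below (right) the control in every cell. They have the largest differences among such genes detected in mMSC-PC (left) or with a cell mean of at least 1 FPKM (right). Grey points are the 16 single mMSCs, black lines their mean and orange diamonds mMSC-PC, with values under 1 drawn at 1. By the rule that chose them, all 16 cells lie above the control on the left and below it on the right; Malat1 spans 416 to 5701 FPKM, and Cxcl1 lies under 1 FPKM in 14 cells.

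Next came the 12 genes of largest difference among those with a mean of at least 1 FPKM and every cell below the control. Of these, 11 were under 1 FPKM in most cells and Mgat1 was in 8 of 16. Cxcl1, a neutrophil-attracting chemokine (chromosome 5, bases 90891241 to 90893115), was at 87.1 FPKM in mMSC-PC, while 14 of 16 cells were under 1 FPKM and the highest reached 12.7. Its mean of 1.17 FPKM was 74.4-fold under the control (difference -6.22). Tap2, a subunit of the transporter that feeds peptides to MHC class I, was at 127 FPKM in mMSC-PC and reached 1 FPKM in 5 cells, at most 15.6 (difference -5.35). Aldh2, the mitochondrial aldehyde dehydrogenase, was at 100.1 FPKM in mMSC-PC and in 4 cells, at most 30.8 (-4.74, or -5.68 without mMSC2). Tgm2, a transglutaminase that crosslinks matrix proteins, was at 41.2 FPKM in the control and at most 5.74 in the 6 cells that held it (-4.69). For some of the 12 a single cell carried the mean. Angpt4 was detected in 1 cell alone, at 45.4 FPKM, against 48.3 in mMSC-PC (-4.09), and without that cell, mMSC6, its difference was -5.59. Cdkn2b, an inhibitor of cyclin-dependent kinases, was at 18.3 FPKM in 1 cell and 27.1 in the control (-4.56). The others were Twf2 (-4.59), Mafk (-4.09), Fstl3 (-4.06), Dpp3 (-4.06, or -4.70 without mMSC16), Slc39a11 (-4.01) and Mgat1, which starts the complex N-glycans (-3.93). In HL1cm, 11 of the 12 had a negative difference, the exception being Cdkn2b, which was listed at 0 in HL1cm-PC. Of all measured genes, 786 were called lower with 16 of 16 cells below the control and a mean of at least 1 FPKM.

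Of the 9623 genes detected in mMSC-PC, 308 were detected in none of the 16 cells (3.20%), and 291 of these were listed at exactly 0 in every cell. A value of 0 in this kind of table can be a failed estimate as well as an absent transcript. Most of these genes were weak in the control, with a median of 2.70 FPKM. Of the genes at 1 to 2 FPKM in mMSC-PC, 11.1% were in no cell, as were 7.22% at 2 to 5 FPKM, 2.42% at 5 to 10 FPKM and 0.637% at 10 to 20 FPKM. Of the 1039 genes at 100 FPKM or more none was missing from all cells, and 83.3% were in all 16. At 20 to 50 FPKM, where 1677 genes lay, 27.5% were in all 16 cells and the median gene was in 14. In the 5 HL1cm, 10.5% of the 9879 genes in HL1cm-PC were in no cell, with fewer cells to find them in.

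**Figure D3:**
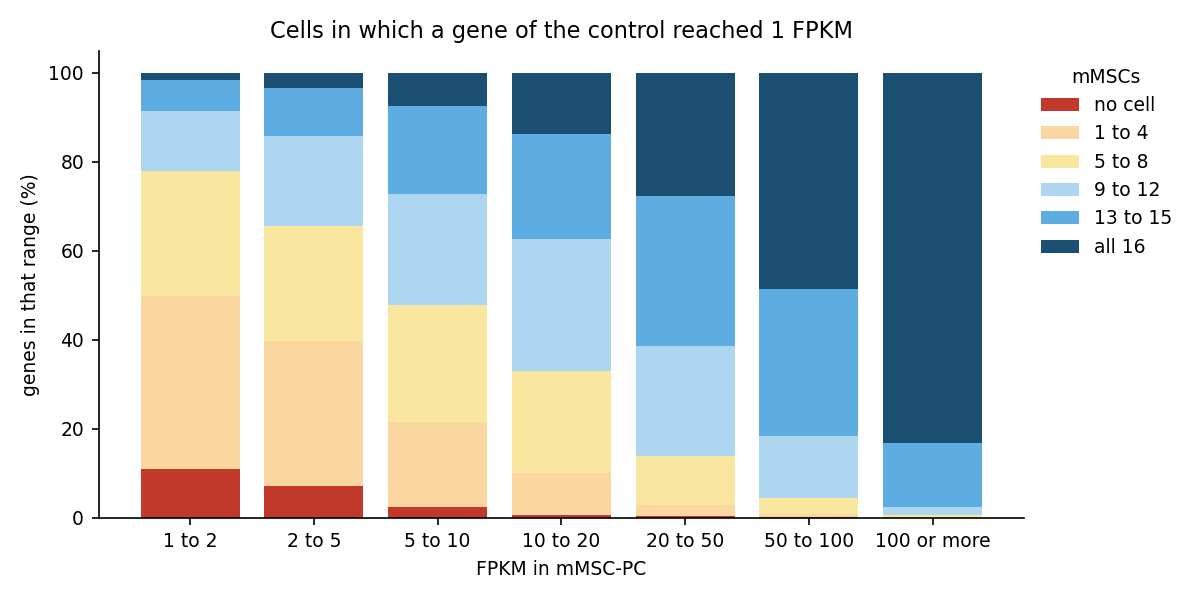
Genes of mMSC-PC, grouped on the x axis by their FPKM in the control, and on the y axis the percentage of each group that reached 1 FPKM in no cell, in 1 to 4 cells and so on up to all 16. The share found in no cell shrinks from 11.1% to 0 and the share found in all 16 grows from 1.61% to 83.3%.

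A total of 19 genes were at 10 FPKM or more in mMSC-PC and in no cell, and the strongest were MHC class I genes. H2-Q2 (chromosome 17, bases 35342242 to 35346762) was at 85.5 FPKM in the control and listed at 0 in 16 of 16 cells. H2-Q4 was at 64.5, H2-Q7 at 39.2 and H2-Bl at 23.7 FPKM, each also listed at 0 in every cell. These genes are near-identical copies between which fragments can be divided in different ways, so the value of any one of them is uncertain. Hist2h2ac, a histone gene with near copies of its own, was at 40.5 FPKM. Among genes without such copies, Fads2, a desaturase of fatty acids, was at 26.7 FPKM, Tmem42 at 25.3, Bdkrb2, the bradykinin receptor, at 21.2, Myod1, the master regulator of skeletal muscle (chromosome 7, bases 46376474 to 46379099), at 17.6, and Hp, the haemoglobin-binding haptoglobin, at 16.5. The list of the 12 strongest was completed by 1700029J11Rik and 1600027N09Rik. Fads2 was at 137 FPKM in HL1cm-PC and 9.06 in the mean of HL1cm, and Myod1 was listed at 0 in all HL1cm libraries. Of the 308 genes, 125 were detected in HL1cm-PC, and 46 of these were in no HL1cm cell either. Over all 9879 genes in HL1cm-PC, 1033 (10.5%) were in no HL1cm cell. The 308 were mostly weak in mMSC-PC, and no share was taken over HL1cm-PC genes of like level.

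In the opposite direction, 4678 genes were detected in at least 12 of the 16 cells, and 82 of them were not detected in mMSC-PC (1.75%), 31 of these being listed at 0 there. All 16 cells held 14 such genes. Tob1, an antiproliferative partner of the deadenylation complex and a relative of Btg1 (chromosome 11, bases 94211454 to 94215495), was at 3.65 to 72.01 FPKM in the cells with a median of 16.2, and was listed at 0 in mMSC-PC. Prkaca, the catalytic subunit of protein kinase A, ran from 3.48 to 55.7 FPKM with a median of 18.05. Csnk2a2, a catalytic subunit of casein kinase, lay between 3.03 and 22.6 FPKM, Sppl3, a protease of the Golgi, between 1.25 and 42.2, Ankrd13c between 3.53 and 23.4, 2810459M11Rik between 1.67 and 41.5, and Zfp697 between 1.71 and 49.3. S100a3 was at 1 FPKM or more in 15 cells, at most 155. All 8 were listed at 0 in mMSC-PC, so no fold is given. In HL1cm-PC, 5 of them were detected, namely Tob1 (6.29 FPKM), Prkaca (8.44), Sppl3 (3.83), Csnk2a2 (1.16) and Ankrd13c (8.66), and Zfp697, 2810459M11Rik and S100a3 were listed at 0. Atp6v0c, a proton pump subunit, had the largest mean of the 82 genes, 200.3 FPKM against 0.468 in mMSC-PC, but its pseudogene Atp6v0c-ps2 was at 650 FPKM in mMSC-PC and at a mean of 181 in the cells, so fragments of one may have been counted for the other and neither value stands alone.

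The direction of the difference varied with the base composition of the transcript. Stretches of coding sequence from 4 genes illustrate the range. They come from the protein-coding genes of lowest GC content among the 12 higher genes (Cul3, Kif2a) and of highest GC content among the 12 lower genes (Twf2, Tgm2), each stretch being the 90 bases at the centre of the largest coding exon, 5′ to 3′ on the coding strand, with G and C in capitals. They are from GENCODE M21 on GRCm38, the same build as mm10. They were chosen for base composition and show nothing beyond it.
Cul3: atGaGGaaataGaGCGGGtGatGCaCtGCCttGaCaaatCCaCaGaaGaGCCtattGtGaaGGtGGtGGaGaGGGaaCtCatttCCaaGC
Kif2a: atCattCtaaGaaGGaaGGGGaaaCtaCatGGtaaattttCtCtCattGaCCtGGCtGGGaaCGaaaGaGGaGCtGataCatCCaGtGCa
Twf2: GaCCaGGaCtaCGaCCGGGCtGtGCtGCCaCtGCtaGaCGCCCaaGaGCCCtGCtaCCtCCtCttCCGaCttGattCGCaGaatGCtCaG
Tgm2: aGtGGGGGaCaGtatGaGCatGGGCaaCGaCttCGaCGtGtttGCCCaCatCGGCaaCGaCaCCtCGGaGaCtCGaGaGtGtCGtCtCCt
The Cul3 stretch (chr1:80286968-80287057, minus strand, exon 6 of 16) is 48.9% GC, in a transcript of 38.5%. Kif2a (chr13:106976713-106976802, minus strand, exon 14 of 20) is 43.3% in a transcript of 38.6%. Twf2 (chr9:106211763-106211852, plus strand, exon 3 of 9) is 60.0% in a transcript of 58.6%, and Tgm2 (chr2:158124210-158124299, minus strand, exon 10 of 13) is 57.8% in a transcript of 57.1%. The separation was not complete, since Nudt3, one of the 12 higher genes, has a transcript of 57.0% GC and Cxcl1 one of 45.1%.

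Of the measured genes, 10812 (98.8%) matched a GENCODE transcript. In the decile of lowest GC content, up to 41.8%, the median difference was 0.39, with 14.2% of genes called higher and 9.98% lower. The next-to-highest decile, from 55.6% to 57.8% GC, had a median of -0.70 with 3.24% called higher and 42.3% lower, and the highest decile a median of -0.54 with 2.40% and 38.6%. With the median cell in place of the mean, the lowest and highest deciles were at -0.22 and -1.72, so the sign of the lowest depended on that choice and the order of the 2 did not. Among genes at 10 FPKM or more, the share above the control was 42.7% to 58.9% per cell in the lowest decile and 20.9% to 35.0% in the highest, and it was larger in the lowest decile in 16 of 16 cells. It was larger in 5 of 5 HL1cm as well, where the medians ran from -0.20 to -1.08. Genes in the control and in no cell followed the same gradient, from 0.861% of control genes in the lowest decile to 7.34% in the highest. Across genes, Spearman's rho between difference and GC content was -0.27 in mMSCs (10812 genes) and -0.19 in HL1cm (9112 genes). The same order held in short, medium and long transcripts, with medians of 0.53, 0.13 and 0.45 in the fifth of lowest GC content and of -0.45, -0.85 and -0.64 in the fifth of highest.

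Length had a different shape. Both the shortest decile of transcripts, under 1161 bases, and the longest, from 6300 bases, had positive medians, 0.46 and 0.33, while the deciles between 1626 and 4842 bases lay between -0.29 and -0.50. The longest decile held the largest share called higher, 19.04%. HL1cm gave the same U shape at a lower level, from -0.32 and -0.20 at the ends to -0.99 in the middle. What the base composition and length of a transcript contribute to each difference below was not tested, beyond the values after subtraction of the median of genes of like GC content, which are given as GC-centred.

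**Figure D4:**
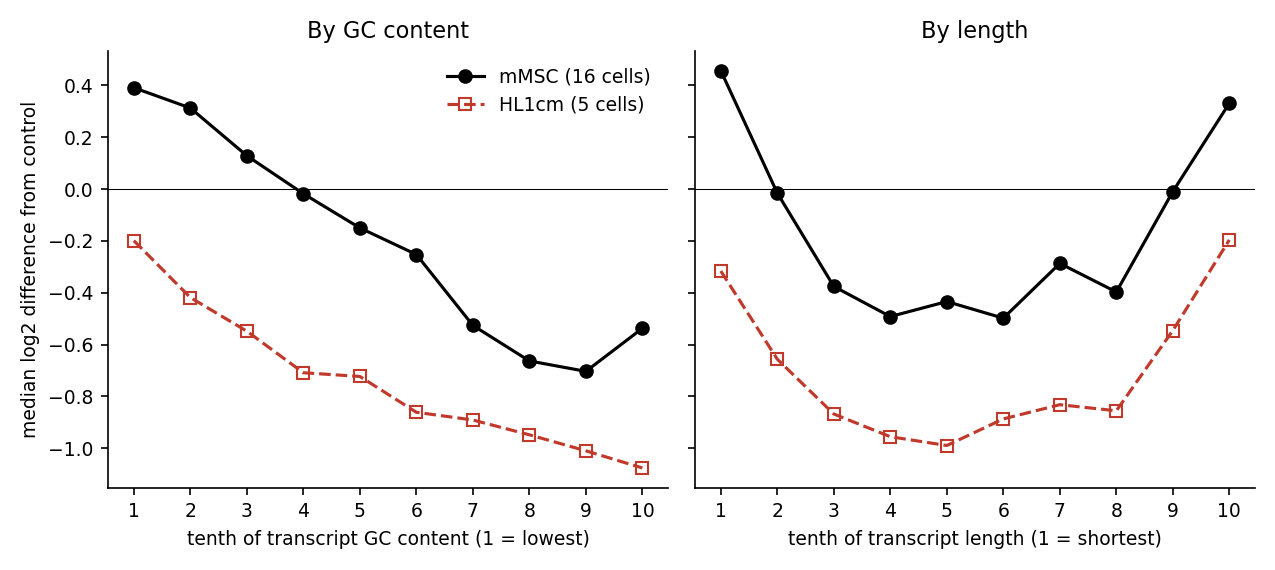
Median log2 difference between the mean of single cells and their population control, for deciles of genes ordered by transcript GC content (left) and by transcript length (right); black circles are mMSCs, red squares HL1cm. By GC content both lines descend, from 0.39 to -0.54 in mMSCs and from -0.20 to -1.08 in HL1cm; by length both are U-shaped.

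Gene classes were then read against these backgrounds, 7.72% called higher and 27.2% called lower. Genes of oxidative phosphorylation were called in both directions. Of 85 measured nuclear genes of the respiratory chain, 23 (27.1%) were called higher and 8 (9.41%) lower, and the median difference was 0.55 (GC-centred 0.98). In a single cell, 52.9% to 77.6% of these genes lay above the control. Uqcrb, the ubiquinone-binding subunit of the cytochrome bc1 complex, was at 651 to 1926 FPKM in the cells against 253 in mMSC-PC (difference 2.24, SD 0.46). Cox7c of cytochrome oxidase was at 173 to 729 against 97.9 (1.96), Ndufa1 at 518 to 2636 against 411 (1.83), and Ndufa5, at 86.9 to 412 against 61.7 (1.79), are both subunits of complex I. For these 4 every cell lay above the control. Among the 8 lower genes, Cyc1, the cytochrome that passes electrons to cytochrome c, was at 0 to 132 FPKM against 193 (-2.38), and Sdha, the flavoprotein of succinate dehydrogenase, at 0 to 62.4 against 88.9 (-1.72). The ATP synthase genes Atp5b and Atp5a1 were lower too, Atp5b at 210.0 to 625 against 1022 (-1.26) and Atp5a1 at 63.4 to 295.5 against 372 (-1.25), in 16 of 16 cells. Transcript length differed between these groups, with a median of 590 bases in the 23 higher genes and 1638 in the 8 lower, while their median GC content was 51.3% and 51.1%. In HL1cm, 1 of 89 measured genes of the list was called higher and 12 lower, with a median of -0.13, beside 4.92%, 41.0% and -0.70 over all HL1cm genes.

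Few ribosomal proteins were called. Of 84 measured proteins of the cytoplasmic ribosome, 5 (5.95%) were called higher, a share below the 7.72% of all measured genes, and none lower. Of the 84, 69 had a positive difference, and the median was 0.34 (GC-centred 0.74). The 5 were Rpl10a (1.46), Rps27l (1.29), Rps4x, Rps3a and Rps16, a family with many processed pseudogenes, so that single members are uncertain. The summed level of the list was 73058 to 138918 FPKM in the cells and 82882 in mMSC-PC, above the control in 15 of 16 cells. The median transcript length of the list was 819 bases. In the shortest decile, under 1161 bases, the median was 0.46 with 10.6% called higher, and the part of length was not tested. In HL1cm, 1 of 83 measured genes of the list was called higher and 6 lower. The HL1cm median of the list was -0.24, beside -0.70 over all HL1cm genes. Of 76 mitochondrial ribosomal proteins, 14 (18.4%) were called higher and 6 (7.89%) lower. Their median was 0.26 (GC-centred 0.72), and -0.072 with the median cell. Mrps16 (2.72) and Mrps18c (2.52) were highest, each above the control in every cell, and Mrpl37 lowest (-2.78).

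Genes of RNA processing were called in both directions. Of 60 splicing factors and RNA-binding proteins, 13 (21.7%) were called higher and 7 (11.7%) lower, with a median of 0.39, which was 0.10 with the median cell. In the 16 single cells the median of the list ran from -0.40 to 0.75. Beside Hnrnpl and Hnrnpa0, Hnrnpu, which binds nascent transcripts and Xist, was at 152.5 to 600 FPKM against 31.9 in mMSC-PC (3.51), and Srsf2, a splicing activator, at 76.4 to 890 against 46.9 (2.88). Both exceeded the control in every cell and had differences of 2.26 and 2.76 in HL1cm. Snrnp25 was in 14 cells and listed at 0 in mMSC-PC. Lower members were Snrnp40 (-2.59), Sf3b3 (-1.81) and Hnrnpm (-1.41), parts of the spliceosome or its partners. Of 58 members measured in HL1cm, 8 were called higher and 16 lower, with a median of -0.42, where all HL1cm genes had 4.92%, 41.0% and -0.70.

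Long noncoding RNAs had the highest median of any list with at least 10 measured genes. Of 19 measured, 9 (47.4%) were called higher and 3 (15.8%) lower, and the median was 1.497 (GC-centred 1.14, HL1cm 0.20), or 2.09 with the libraries rescaled to an equal sum. The list is a chosen one. Of all 104 measured genes annotated as lincRNA, 12.5% were called higher and 21.2% lower, with a median of 0.50, and of 78 other lncRNAs 6.41% higher and 14.1% lower, with a median of 0.39. Hosts of small nucleolar RNAs were called in both directions. Snhg1 was at 0 to 272 FPKM in the cells against 16.5 (2.85), Gas5 at 9.12 to 152 against 18.8 (2.01) and Snhg6 at 0 to 808 against 119 (1.24), while Snhg12 was lower (-1.71). Xist, at 2.57, was above the control in 16 cells and Dnm3os in 12. Not every nuclear RNA went this way. Neat1, the scaffold of paraspeckles and the neighbour of Malat1, was at 0 to 37.0 FPKM against 16.6 and was called lower (-1.21), as was Tug1 (-1.05).

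Glycolysis had the largest share called lower among the lists with at least 10 measured genes. Of 17 measured genes, 11 (64.7%) were called lower and 1 higher, with a median of -1.07 (GC-centred -0.70), and a single cell had 5.88% to 23.5% of them above the control. Pkm2, pyruvate kinase, was at 434 to 1100 FPKM against 3794 in mMSC-PC (-2.32). Ldha, lactate dehydrogenase, was at 119 to 811 against 1385 (-1.92), and Gapdh, often used as a reference gene, at 157 to 320 against 551 (-1.38, SD 0.29). The glucose transporter Slc2a1 was at 0 to 38.8 against 49.4 (-2.41). All 16 cells lay below the control for each of these 4. Hk2, the hexokinase that commits glucose to the cell (chromosome 6, bases 82725025 to 82774454), was the exception, at 283 to 890 FPKM against 40.1 (3.63), above the control in every cell and also higher in HL1cm (2.55). The HL1cm list had a median of -1.09, with 9 of 17 called lower, against -0.70 and 41.0% over all HL1cm genes.

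Secreted signals and their regulators were lower in part. Of 25 measured chemokines, cytokines and NF-kB targets, 13 (52.0%) were called lower and none higher, with a median of -1.13, which was -1.93 with the median cell and -1.75 over genes at 10 FPKM or more. Beside Cxcl1, the ligands Cx3cl1 (13.5 FPKM in mMSC-PC, in 2 cells), Lif (118 FPKM, in 10 cells, at most 44.4) and Csf2 (12.8 FPKM, in 2 cells) were lower, and Cxcl12, which retains blood stem cells in the marrow, was at 0 to 357 against 512 FPKM (-2.94). Vcam1, an adhesion molecule (-2.60), and the inhibitors Nfkbia (-1.87) and Tnfaip3 (-1.78) were lower as well. The most abundant chemokines were not. Ccl2 was at 393 to 14526 FPKM with a median of 1041 against 2624 in mMSC-PC, Ccl5 at 0 to 14839 with a median of 2247 against 3383, and Ccl7 at 272 to 9381 with a median of 1387 against 2517. Their means exceeded the control by 0.36, 0.37 and 0.18, while 10, 9 and 11 of the 16 cells lay below it.

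Immediate early genes, which are induced within minutes of a stimulus, were lower in 13 of 27 (48.1%) and higher in none. Their median was -0.94 (GC-centred -0.46), and -1.84 with the median cell. In HL1cm, 9 of 21 measured genes of the list were called lower and 2 higher, with a median of -0.79. Those values were near the 41.0% called lower and the median of -0.70 over all HL1cm genes. Ctgf was at 0 to 168 FPKM against 791 in mMSC-PC (-3.27), Cyr61 at 0 to 341 against 1054 (-3.01), and Ier3 at 5.51 to 879 against 985 (-2.48), with 16 of 16 cells below the control. Ctgf and Cyr61 encode matricellular proteins. Klf4 had the largest positive difference of the list, 2.01, at 0 to 138 FPKM against 8.80, above the control in 10 cells.

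Matrix genes were lower than the control in part. Of 27 matrix glycoproteins and matricellular proteins, 13 (48.1%) were called lower and 2 higher, with a median of -0.89, which was -1.502 with the median cell and -1.49 over genes at 10 FPKM or more. Sparc, a collagen-binding protein, was at 436 to 1408 FPKM against 2715 (-1.51), Thbs1 at 61.0 to 630 against 1010 (-1.58) and Fn1, fibronectin, at 24.8 to 128 against 199.7 (-1.58), each below the control in every cell. Fmod was under 1 FPKM in 12 cells and at 19.9 in mMSC-PC. Fbn1, fibrillin, was called higher (2.23), in 12 cells, from 1.67 FPKM in the control. Among 20 measured collagens 4 were called lower, a share below the 27.2% of all measured genes, and none higher, with a median of -0.30 (GC-centred -0.010), which was -0.85 with the median cell. Col1a1, the chief collagen of bone, was at 30.8 to 385 FPKM against 920 (-2.46) and lower in every cell, whereas Col1a2, its partner chain, was at 80.3 to 1194 against 714 (-0.81) and lower in 13. The list of 11 measured mesenchymal markers shares genes with these, among them Col1a1, Fn1 and Sparc. Of the 11, 5 (45.5%) were called lower, and the median was -0.95. Pdgfrb, a growth factor receptor, was at 7.57 to 48.3 FPKM against 90.3 (-1.99), while Cd44 (0.74) and Ly6a (0.12) were not called.

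Antigen presentation was added to the lists after its values had been seen. Of 22 measured genes of MHC class I and peptide loading, 13 (59.1%) were called lower and none higher, with a median of -1.43 (GC-centred -1.11). H2-D1 (chromosome 17, bases 35262730 to 35267499) was at 103 to 400.2 FPKM in the cells against 2389 in mMSC-PC, 11.2-fold lower (-3.48, SD 0.54), and H2-K1 at 17.6 to 246 against 1199 (-3.52), the classical heavy chains of this strain. Tap1 was at 0 to 53.7 against 94.1 (-2.06) and Tapbp at 13.5 to 261 against 516 (-1.75). In contrast B2m, the light chain shared by all of them, was at 2662 to 7266 FPKM against 5287 (-0.21), with 6 cells above and 10 below, and the immunoproteasome subunits Psmb8 (0.12) and Psmb9 (0.29) were near the control. The heavy chains have near-identical copies and their transcripts are 55.9% and 56.3% GC, against 41.2% for B2m, and those of Psmb8 and Psmb9 are 55.8% and 55.3%. The part of copies and base composition was not tested. In HL1cm, 8 of 17 measured genes of the list were called lower and 1 higher, with a median of -0.67 beside -0.70 over all HL1cm genes, and H2-D1 was at -3.15. Of 25 interferon response genes, 5 were called lower, also a smaller share than over all measured genes, and none higher, with a median of -0.67. Bst2, tetherin, was at 422 to 836 FPKM against 2749 (-2.17, SD 0.32) and Irf7 at 43.7 to 337 against 720.2 (-2.16), each lower in 16 cells. Ifit1 was at 153 to 2106 against 977 (-0.11).

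Genes of protein folding were lower in part. Of 18 ER chaperones and stress genes, 8 (44.4%) were called lower and 2 (11.1%) higher. Their median was -0.67, and -1.18 with the median cell. In HL1cm, 11 of 18 were called lower and none higher, with a median of -1.63, beside 41.0% lower and -0.70 over all HL1cm genes. Hspa5, the main chaperone of the ER, was at 257 to 1864 FPKM against 1952 (-1.32), below the control in every cell, and Pdia4 at 33.4 to 182 against 337 (-1.84). Canx and Ddit3 were higher, by 1.29 and 1.37. Of 33 tRNA synthetases, 10 were called lower, a share of 30.3% near the 27.2% of all measured genes, and none higher. The median of this list was -0.70, and -1.21 with the median cell. The lowest were Hars2 (-2.10) and Qars (-2.02).

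Cell cycle genes varied widely between cells. Of 31 measured G2/M genes, 5 (16.1%) were called lower and none higher, and of 28 S phase genes 7 (25.0%) lower and none higher. Both shares called lower were under the 27.2% of all measured genes. In 5 cells more than 50% of the G2/M genes lay above mMSC-PC, up to 93.5% in mMSC4, and in 9 cells fewer than 20%, down to 3.23%. Birc5, an inhibitor of apoptosis expressed in mitosis, ran from 0 to 515 FPKM with a median of 25.7 against 94.7, and 5 cells lay above the control. The summed level of the list was 88.5 to 2809 FPKM, against 680 in mMSC-PC. For S phase, 6 cells had more than 50% of the genes above the control and 7 fewer than 20%. Here the population value lay inside the range of the cells. The median difference of the G2/M list, 0.37 for the mean of the cells, was -1.98 with the median cell in place of the mean and -0.053 without mMSC11.

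**Figure D5:**
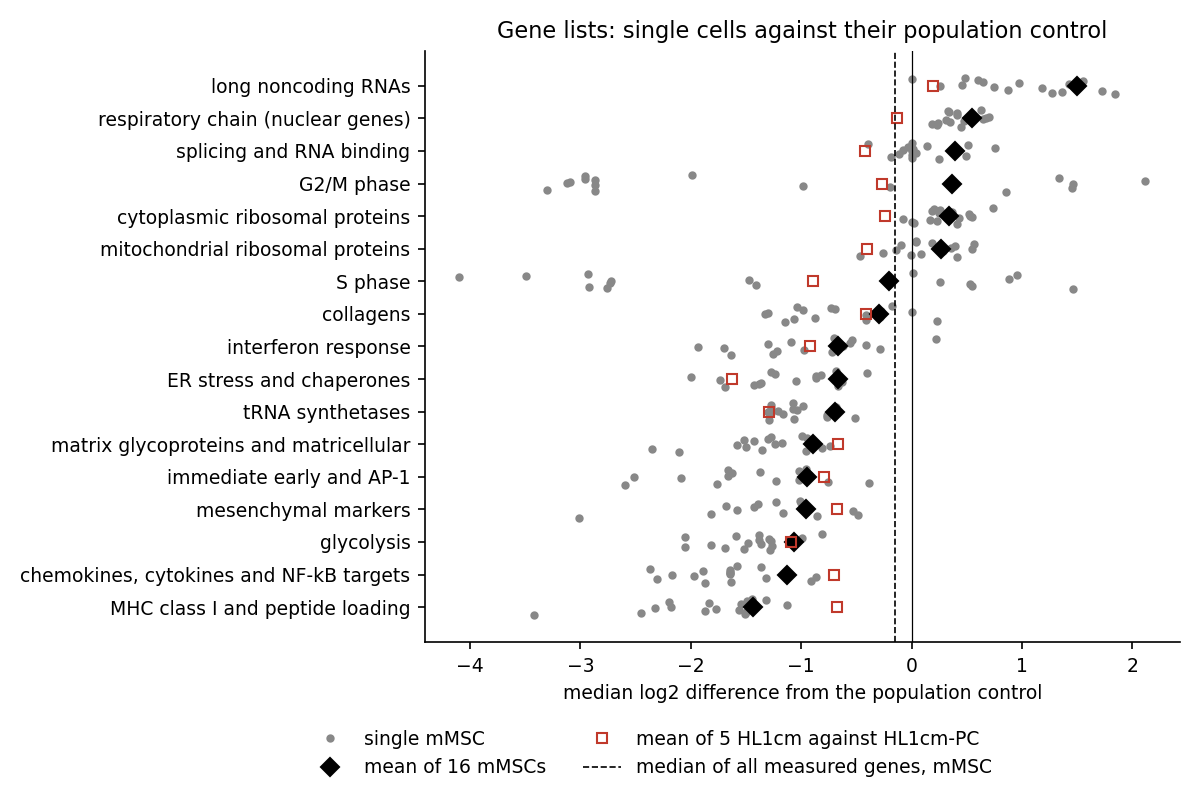
Median log2 difference from the population control for 17 gene lists; grey points are the 16 single mMSCs, black diamonds the mean of the 16, red squares the mean of 5 HL1cm against HL1cm-PC, and the dashed line the median of all measured genes (-0.15). The lists of long noncoding RNAs (1.497) and MHC class I (-1.43) are at the ends, and the S phase and G2/M lists have the widest spread between cells.

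The other 12 lists with at least 10 measured genes had medians between -0.64 and 0.68. Among abundant genes in everyday use, Actb was at 3774 to 15484 FPKM against 10268 in mMSC-PC (-0.03, 8 cells above and 8 below) and Rplp0 at 1850.3 to 4056 against 2838 (-0.17). Eef1a1, the elongation factor that delivers tRNAs, was at 1214 to 1978 FPKM against 3601 (-1.13), lower in every cell with an SD of 0.20 between cells, and Eif1ax, at 427 to 1381 against 243 (1.79), was higher in every cell.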

How the data were processed

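The authors aligned paired-end reads to mm10 with TopHat2 2.0.12 and estimated abundance with Cufflinks 2.2.1, and deposited 1 table of FPKM, used as deposited. FPKM is scaled to transcript length and mapped fragments. No read counts were used, so no count model was fitted, the number of fragments behind a value is not known from the table, and low values are imprecise. Symbols starting Mir or Snor were dropped. Difference, detection and call rules are in the text; with 1 culture and 1 control there is no test. Named genes were the 12 (8 where listed at 0 in the control) most extreme in each direction, within the limits stated for each set. For each of 34 lists the most abundant and most extreme members were named too. Others were picked after their values were seen, as was the MHC class I list. The members and lists were chosen with earlier results of these data known. Transcript length and GC content came from GENCODE M21 (GRCm38), the longest transcript with a RefSeq match, otherwise the longest. Alternatives changed the log scale, scaling, filter, fold, cells required and cells included. The rule for calling genes higher or lower was tested on simulated data, which lacked the zeros and the wide spread of many real genes. The other steps were not tested in this way. Python 3.11.15, numpy 2.4.6, pandas 2.3.3 and scipy 1.17.1 were used.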

Additional observations from a re-analysis of the deposited data

Results flagged for a closer look

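In 4 of the gene lists, 1 HL1cm cell was far from the other 4 in its median difference from HL1cm-PC, by the gap to its neighbour relative to the whole range. About 1 in 20 such groups would be picked out by chance. For the G2/M list this was HL1cm2, at -4.88, where the other 4 cells lay between -0.81 and 0.54. For the ER stress and chaperone list it was HL1cm5, at -2.65, against -1.55 to -1.40 in the others. HL1cm3 stood apart for the interferon response list, at -0.25 against -2.01 to -1.58, and for long noncoding RNAs, at -0.69 against -0.05 to 0.17. The HL1cm medians given beside the mMSC lists include these cells. The group of 16 mMSCs is too large for this comparison.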

How the results depend on the processing

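The 24 genes of largest difference kept their direction and a difference of at least 2-fold in all 504 alternative values. For most alternatives the rule that chose them fixes this, so that it is no sign of stability. The number of cells on each side was not part of that comparison. With the median cell in place of the mean, the medians of G2/M (-1.98) and mitochondrial ribosomal genes (-0.072) and of the lowest-GC decile (-0.22) changed sign. The same choice gave -1.18 for ER stress, -1.93 for chemokines, -0.85 for collagens, -1.45 for glycolysis, -1.84 for immediate early genes, -1.502 for matrix genes, 0.10 for splicing, -1.21 for tRNA synthetases and -1.72 for the highest-GC decile. Restriction to genes at 10 FPKM or more gave -1.75 for chemokines, -1.49 for matrix genes and -0.89 for the highest-GC decile, and 1746 genes called lower. Centring on GC content, chosen after seeing the data, gave 0.74 for ribosomal, -0.70 for glycolysis, 0.72 for mitochondrial ribosomal and 0.98 for respiratory chain genes. Libraries rescaled to an equal sum gave 2.09 for long noncoding RNAs and 0.52 for the lowest-GC decile. Without mMSC9 and mMSC15 glycolysis was at -1.41. The alternatives for the GC deciles were also chosen after seeing the data. The causes were not tested.

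Of the genes called higher or lower, 212 and 1166 met the rule in 16 of 16 cells and 357 and 955 at a difference of 2 or more, and 2081 were higher with no requirement on the number of cells. Detection above 0 left 41 genes in the cells and not in the control, and detection at 10 FPKM gave 132, with 116 in the control and in no cell. The correlation of the mean with mMSC-PC was 0.873 by Spearman and 0.828 over measured genes. Leaving out 1 cell at a time, with 12 of the remaining 15 required, gave 713 to 751 genes called higher, and the G2/M median ran from -0.053, without mMSC11, to 0.46. No paired analysis was possible because the numbers shared by mMSC and HL1cm labels name unrelated cells and no test was made. Estimates of depth from the lowest FPKM values were not stable and are not given.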

Other observations

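The 759 symbols starting Mir or Snor, left out above, made up 0.199% of the summed FPKM in mMSC-PC but 4.68% to 75.0% in the single mMSCs, with a median of 23.2%. Between 2 and 16 of these symbols reached 1 FPKM in a cell and 2 did in mMSC-PC. The largest single value was that of Mir3470a in mMSC8, at 1.26e+06 FPKM. FPKM divides by a very short length for such entries, so these shares say little about the number of fragments.

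Genes detected in 1 cell alone and not in mMSC-PC numbered 1324, of 3201 genes detected in at least 1 cell and not in mMSC-PC. By contrast, 2143 genes were detected in all 16 cells, and 2129 of these were in mMSC-PC.

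By annotated type, against 7.72% called higher and 27.2% lower over all measured genes, 12.5% of the 104 measured lincRNA genes were called higher and 21.2% lower, with a median difference of 0.50. Of the 90 antisense genes, 5.56% were called higher and 18.9% lower, with a median of 0.55. Of the 50 processed pseudogenes, 3 were called higher and 21 lower, with a median of -0.49. Antisense genes overlap others, and the strand of the fragments was not stated, so their values are uncertain.

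Fabp4, the fatty acid binding protein of fat cells, was above mMSC-PC (12.4 FPKM) in 5 cells, up to 180.5 FPKM, and listed at 0 in the median cell. This gene was chosen after its values were seen.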
